A study of Mus musculus with 4 samples.

Results

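RNA of 10 genes that mark the lung epithelium was measured in RNA-Seq libraries of lung tumor-infiltrating CD4+ T cells. The genes were taken by name, as markers of their cell types. They comprised the markers of alveolar type 2 cells *Sftpa1*, *Sftpb*, *Sftpc*, *Sftpd*, *Lamp3* and *Slc34a2*, the markers of alveolar type 1 cells *Ager* and *Hopx*, and the airway secretory cell genes *Scgb1a1* and *Scgb3a2*. All 10 were among the 25239 gene symbols counted, and all 10 were among the 13919 genes that passed the filter on low counts. The 4 libraries came from C57BL/6 mice whose lungs bore tumors of LLC-OVA, a Lewis lung carcinoma line made to express ovalbumin. Of these, 2 libraries were labelled WT and 2 CD4/ALK4-KO. CD4/ALK4-KO mice had the genotype CD4CreERT2+/-/Acvr1bfl/fl, in which a Cre recombinase driven from *Cd4* is activated by tamoxifen and deletes floxed *Acvr1b*, the gene of the activin receptor ALK4. Per the study's methods, mice were aged 8 to 10 weeks and tamoxifen was given at 75 mg/kg in 5 daily doses. A treatment of the WT mice with tamoxifen is not given in the sources used here. Mice of both genotypes received 500000 LLC-OVA cells intravenously, and lungs were taken 18 to 22 days later per the labels, while the study's methods give a somewhat earlier span of days for this model. T cells were purified with a kit for CD4+ cells from the leukocytes of a Percoll gradient and were not described as sorted by flow cytometry.

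Total counts were 11823908 to 13943237 per library. *Acvr1b*, the targeted gene, had 426 and 342 counts in WT-labelled libraries and 322 and 445 in CD4/ALK4-KO-labelled ones, a log2 fold change of 0.16 (SE 0.24, adjusted p = 0.66), so it did not tell the labels apart, and each direction below is one between labels. Without CD4/ALK4-KO replicate 2 it was -0.06. *Cd4* had 759 and 649 counts against 3654 and 4033, and the genes of the T cell receptor complex that the table lists (*Cd3d*, *Cd3e*, *Cd3g* and *Cd247*) summed to 2650 and 2454 counts against 10768 and 9932. Defining T cell genes were therefore present in all 4 libraries and higher in both CD4/ALK4-KO-labelled ones.

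The distal lung is lined by alveolar type 1 cells, the flat cells through which gas is exchanged, and by cuboidal type 2 cells, which make surfactant and act as progenitors of type 1 cells. Surfactant is a film of lipids and of the surfactant proteins SP-A, SP-B, SP-C and SP-D that lowers surface tension and takes part in innate defence. The conducting airways hold secretory club cells, which release secretoglobins and detoxify inhaled compounds. None of these programmes belongs to CD4+ T cells, though lymphoid or dendritic cells also use single genes. Those named below are examples, and the cells behind each value were not tested.

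NKX2-1 and FOXA factors are known regulators of surfactant genes. The promoters of *Sftpa1* and *Sftpb* are shown because both carry letters of the NKX2-1 motif before the start of a surfactant protein gene measured here. *Sftpb* also carries letters of a FOXA motif, and *Sftpa1* has no FOXA match. RefSeq promoter windows (GRCm38.p6, 250 bases before to 50 after the start) matched 6 of the 10 genes in 7 windows. Below, the 250 bases before each start are given 5′ to 3′ along the gene, chr14:41131538-41131787 (plus strand) for *Sftpa1* and chr6:72304360-72304609 (plus strand) for *Sftpb*, with motif matches in capitals.
Sftpa1: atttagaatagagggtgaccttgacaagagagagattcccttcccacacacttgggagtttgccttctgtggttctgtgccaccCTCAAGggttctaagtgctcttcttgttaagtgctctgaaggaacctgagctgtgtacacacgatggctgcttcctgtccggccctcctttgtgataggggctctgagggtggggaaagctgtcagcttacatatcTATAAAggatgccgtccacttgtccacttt
Sftpb: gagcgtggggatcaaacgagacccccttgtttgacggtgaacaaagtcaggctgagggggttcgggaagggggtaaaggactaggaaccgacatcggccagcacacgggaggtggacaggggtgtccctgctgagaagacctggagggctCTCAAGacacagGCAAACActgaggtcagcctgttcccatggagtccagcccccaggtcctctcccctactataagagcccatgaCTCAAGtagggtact
The letters searched on both strands were CTCAAG for the core of the NKX2-1 motif, TGTTTAC and its variant TGTTTGC for FOXA factors, and TATAAA for the TATA box. In *Sftpa1*, CTCAAG lay 166 bases upstream of the start and TATAAA 30 bases upstream. In *Sftpb*, CTCAAG lay 100 and 15 bases upstream and TGTTTGC lay on the opposite strand 88 bases upstream. Outside these promoters, *Lamp3* held TGTTTAC 92 bases upstream, and *Hopx* held CTCAAG on the opposite strand in each of its windows, 112 bases upstream in one and 37 bases downstream in the other. The windows of *Ager* and *Slc34a2* held none of the motifs. Over 32851 promoters of the same length, CTCAAG was present in 15.9%, TGTTTAC in 3.65%, TGTTTGC in 5.07% and TATAAA in 13.6%. A match of letters is a description and not a site of binding. *Nkx2-1* itself had 2 and 3 counts in WT-labelled libraries and 0 and 2 in CD4/ALK4-KO-labelled ones, below the filter, and the count of 0 allows up to 3 counts.

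The epithelial genes were expressed at very unequal levels in these T cell libraries. Levels are given as CPM, counts scaled to a common library size after TMM adjustment, which sets the bulk of genes equal between libraries. Per kilobase of annotated exon, *Scgb1a1* had the highest mean level of the 10 genes, 717.5 CPM per kb over the 4 libraries. *Sftpc* followed at 72.5, *Scgb3a2* at 45.9 and *Hopx* at 45.6 CPM per kb. *Sftpa1* had 7.68, *Sftpb* 4.33 and *Sftpd* 2.76 CPM per kb, and *Lamp3*, *Ager* and *Slc34a2* had 1.92, 1.89 and 0.958. Within libraries, *Scgb1a1* was above *Sftpc* in 4 of 4, and each step from *Hopx* to *Sftpa1*, *Sftpb*, *Sftpd* and *Lamp3* and from *Ager* to *Slc34a2* also held in 4 of 4. *Sftpc* was above *Scgb3a2*, and *Scgb3a2* above *Hopx*, in 3 of 4 libraries, and *Lamp3* was above *Ager* in 2 of 4, so the order of these neighbours was not the same in every library. The 10 genes together took 0.0686% and 0.0671% of the total counts in WT-labelled libraries and 0.0546% and 0.0396% in CD4/ALK4-KO-labelled ones.

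The airway gene *Scgb1a1* and the surfactant genes *Sftpc* and *Sftpa1* were lower in CD4/ALK4-KO-labelled libraries. These 3 of the 10 genes fell at an adjusted p under 0.05, none rose, and 7 did not pass the test. Over all genes tested, 15.4% were called lower and 17.4% higher by the same test. The median log2 fold change of the 10 genes was -0.65, against -0.0082 over all genes tested, and 9 of the 10 values were negative. In 6 genes (*Sftpa1*, *Sftpb*, *Sftpc*, *Sftpd*, *Scgb1a1* and *Lamp3*) both CD4/ALK4-KO-labelled libraries were below both WT-labelled ones, an ordering that 34.0% of all genes tested showed. *Hopx* alone of the 10 had the opposite order, whose share over all genes tested was not counted. Without WT replicate 1 or 2, the log2 fold changes were -0.83 and -0.82 for *Sftpc*, -0.77 and -0.70 for *Scgb1a1*, and -0.55 and -0.83 for *Sftpa1*. The calls of these 3 genes were not kept in either of these fits. A fit with 1 library in a group, here and below, takes its spread from the other group. Its calls and adjusted p-values thus measure no spread within the group of the lone library. In bulk libraries, fewer cells of a type and less RNA per cell cannot be told apart.

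**Figure D1:**
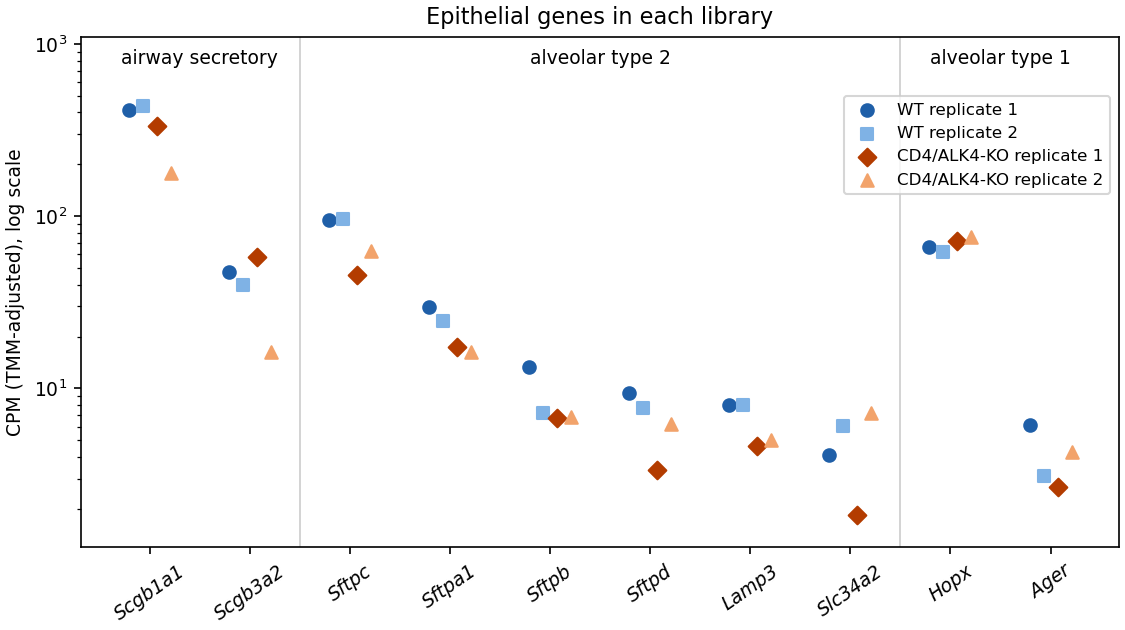
CPM of the 10 epithelial genes (vertical axis, log scale) in each of the 4 libraries, with 1 point per library and genes grouped by the cell type they mark. *Scgb1a1* lay between 178.7 and 437.1 CPM, above the other 9 genes in every library, and *Hopx* was the gene whose CD4/ALK4-KO points both lay above its WT points.

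*Scgb1a1* (chromosome 19, 9083636 to 9087958, minus strand, 476 bp of exon) encodes uteroglobin, the main secreted protein of club cells. It had 5683 and 5913 counts in WT-labelled libraries and 3994 and 2206 in CD4/ALK4-KO-labelled ones. At 425.9 ± 15.9 against 257.1 ± 110.9 CPM (SD, n = 2 per genotype), both CD4/ALK4-KO-labelled libraries were below both WT-labelled libraries, with replicate 2 much the lower of them. This was a log2 fold change of -0.73 (SE 0.25, adjusted p = 0.030). Its size depended on which CD4/ALK4-KO library was kept: it was -1.22 without replicate 1 and -0.35 without replicate 2. Without WT replicate 1 or WT replicate 2 the log2 fold change was -0.77 or -0.70.

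*Scgb3a2* (chromosome 18, 43764289 to 43767399, plus strand, 880 bp of exon) encodes another secretoglobin of airway cells. It had 651 and 539 counts in WT-labelled libraries and 690 and 201 in CD4/ALK4-KO-labelled ones. CD4/ALK4-KO replicate 1 was above both WT-labelled libraries and replicate 2 below both, so the groups overlapped. At 43.7 ± 5.42 against 37.1 ± 29.5 CPM (SD, n = 2 per genotype), the log2 fold change of -0.24 (SE 0.73, adjusted p = 0.85) was within the spread between replicates. With CD4/ALK4-KO replicate 1 left out it was -1.39, and with replicate 2 of that label left out 0.40. The CPM of the CD4/ALK4-KO-labelled libraries differed 3.56-fold.

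*Sftpc* (chromosome 14, 70520949 to 70524081, minus strand, 1034 bp of exon) encodes SP-C, a hydrophobic surfactant protein that is made by type 2 cells. It had 1305 and 1299 counts in WT-labelled libraries and 545 and 775 in CD4/ALK4-KO-labelled ones. The WT-labelled libraries were nearly equal and both CD4/ALK4-KO-labelled libraries lay clearly below them, at 95.6 ± 0.567 against 54.3 ± 12.0 CPM (SD, n = 2 per genotype). With a log2 fold change of -0.82 (SE 0.22, adjusted p = 0.0070), *Sftpc* had the lowest adjusted p of the 10 genes. Leaving out CD4/ALK4-KO replicate 1 gave -0.58 and leaving out replicate 2 of that label -1.07. Leaving out WT replicate 1 or 2 gave -0.83 and -0.82.

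*Sftpa1* (chromosome 14, 41131782 to 41136452, plus strand, 2860 bp of exon) encodes SP-A, a collectin that binds microbes in the alveolar lining. It had 407 and 332 counts in WT-labelled libraries and 206 and 201 in CD4/ALK4-KO-labelled ones. The groups did not overlap, at 27.1 ± 3.65 against 16.8 ± 0.726 CPM (SD, n = 2 per genotype), with a log2 fold change of -0.69 (SE 0.26, adjusted p = 0.043). The call was near the threshold: the adjusted p was 0.075 when libraries were scaled by total counts alone. The log2 fold change was -0.55 or -0.83 without WT replicate 1 or 2, and -0.65 when CD4/ALK4-KO replicate 2 was left out.

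The other surfactant proteins did not pass the test. *Sftpb* (chromosome 6, 72304610 to 72314371, plus strand, 1968 bp of exon), which encodes the SP-B needed to spread the lipid film, had 182 and 98 counts in WT-labelled libraries and 80 and 84 in CD4/ALK4-KO-labelled ones. WT replicate 1 stood above the other 3 libraries, which were close to each other in CPM. The log2 fold change was -0.60 (SE 0.34, adjusted p = 0.18), and -0.11 without WT replicate 1. *Sftpd* (chromosome 14, 41172214 to 41185149, minus strand, 2417 bp of exon), which encodes the collectin SP-D, had 129 and 104 counts against 40 and 77. Both CD4/ALK4-KO-labelled libraries were below both WT-labelled libraries. The log2 fold change was -0.83 (SE 0.37, adjusted p = 0.085), and it was -0.42 or -1.35 without CD4/ALK4-KO replicate 1 or 2.

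*Lamp3* (chromosome 16, 19653378 to 19706375, minus strand, 3356 bp of exon) encodes a membrane protein of lamellar bodies, the organelles in which type 2 cells store surfactant, and also marks mature dendritic cells. It had 110 and 109 counts in WT-labelled libraries and 55 and 62 in CD4/ALK4-KO-labelled ones. The replicates were close to each other and the groups did not overlap, at 8.04 ± 0.022 against 4.82 ± 0.284 CPM (SD, n = 2 per genotype). The log2 fold change of -0.74 (SE 0.34, adjusted p = 0.11) did not pass the test. Of 10 other genes of mature dendritic cells that were tested, 5 rose, among them *Ccr7*, their homing receptor (log2 fold change 2.12, SE 0.23, adjusted p = 3.1e-07), and 1 fell, *Fscn1*, which encodes an actin-bundling protein (-1.50, SE 0.22, adjusted p = 1.8e-05). The summed CPM of that list was 283.0 and 255.3 in WT-labelled libraries and 378.5 and 369.1 in CD4/ALK4-KO-labelled ones, and its part in the level of *Lamp3* was not tested.

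*Slc34a2* (chromosome 5, 53038081 to 53071664, plus strand, 5013 bp of exon) encodes the sodium-dependent phosphate transporter NaPi-IIb of type 2 cells. It had 56 and 82 counts in WT-labelled libraries and 22 and 89 in CD4/ALK4-KO-labelled ones, where replicate 1 was the lowest and replicate 2 the highest of the 4 libraries in CPM. The log2 fold change of -0.16 (SE 0.49, adjusted p = 0.83) was within the spread between replicates. It took both signs as libraries were left out: -0.42 and 0.14 without WT replicate 1 or 2. It was 0.54 without CD4/ALK4-KO replicate 1 and -1.46 without replicate 2 of that label. The antisense gene *Gm17182* overlaps the span of *Slc34a2*, and the library kit does not mark strand. Reads on bases that both genes share cannot be told apart, and overlap of exons was not examined.

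*Hopx* (chromosome 5, 77086988 to 77115121, minus strand, 1516 bp of exon) encodes a homeodomain-only protein of type 1 cells that T cells and natural killer cells also express. It had 908 and 837 counts in WT-labelled libraries and 860 and 939 in CD4/ALK4-KO-labelled ones. Both CD4/ALK4-KO-labelled libraries were slightly above both WT-labelled libraries in CPM, at 74.2 ± 2.69 against 64.1 ± 3.10 (SD, n = 2 per genotype). The log2 fold change of 0.21 (SE 0.21, adjusted p = 0.48) did not pass the test, and it was positive with each library left out (0.15 to 0.28). The span of *Hopx* is overlapped by the antisense gene *Hopxos*, and reads on shared bases cannot be told apart either. *Ager* (chromosome 17, 34597862 to 34600936, plus strand, 2141 bp of exon), which encodes RAGE, a receptor abundant on type 1 cells, had 84 and 42 counts in WT-labelled libraries and 32 and 53 in CD4/ALK4-KO-labelled ones. The groups overlapped, with WT replicate 1 above the other 3 libraries, and the log2 fold change was -0.40 (SE 0.45, adjusted p = 0.53). It was 0.16 without WT replicate 1.

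**Figure D2:**
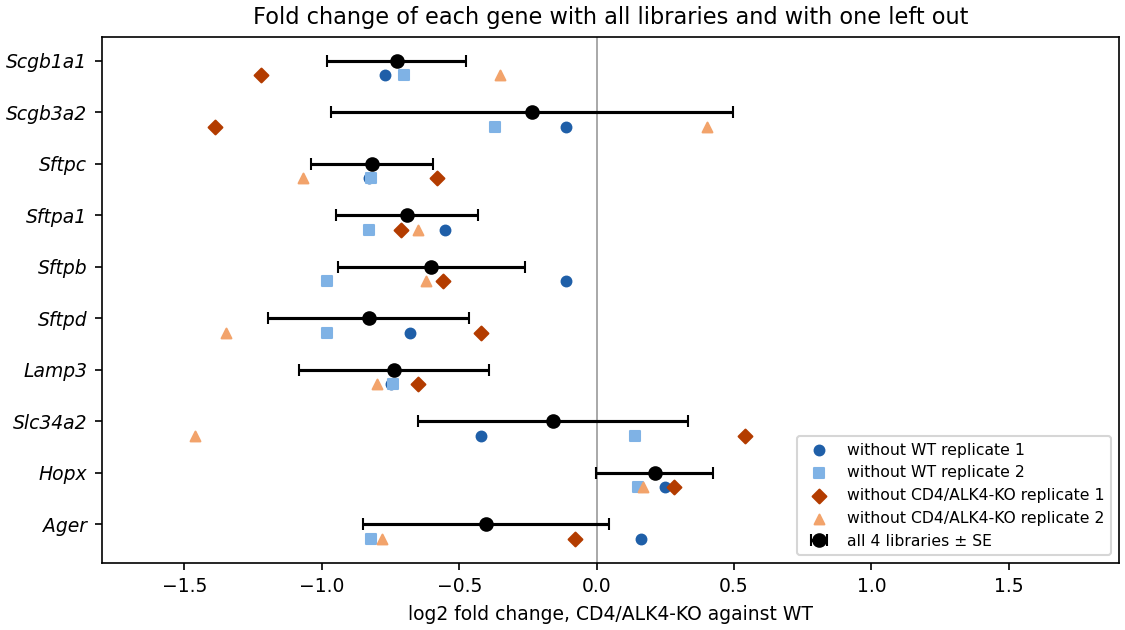
Log2 fold change of CD4/ALK4-KO against WT (horizontal axis) for each of the 10 genes, with all 4 libraries (black, with SE as bars) and with each library left out in turn (coloured points). *Scgb3a2* ran from -1.39 to 0.40 and *Slc34a2* from -1.46 to 0.54, whereas *Lamp3* ran only from -0.80 to -0.65 and *Hopx* from 0.15 to 0.28.

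Summed over the 10 genes, WT-labelled libraries had 694.3 and 691.6 CPM and CD4/ALK4-KO-labelled ones had 548.1 and 379.6 CPM. The sum was 692.9 ± 1.94 against 463.9 ± 119.1 CPM (SD, n = 2 per genotype), a ratio of CD4/ALK4-KO to WT of 0.669, and *Scgb1a1* supplied most of it. Without *Scgb1a1* the ratio was 0.774. The 6 type 2 genes summed to 159.7 and 149.6 CPM in WT-labelled libraries and 79.6 and 104.3 CPM in CD4/ALK4-KO-labelled ones (ratio 0.595), the airway genes to 462.2 and 477.0 against 393.5 and 195.0 CPM (ratio 0.627), and *Ager* and *Hopx* to 72.4 and 65.0 against 74.9 and 80.3 CPM (ratio 1.13). Type 2 and airway sums were thus lower in both CD4/ALK4-KO-labelled libraries, but not in the same order: replicate 1 had the lower type 2 sum and replicate 2 the lower airway sum.

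Shares within a library do not depend on how libraries are scaled to each other. *Scgb1a1* made up 59.7% and 63.2% of the counts of the 10 genes in WT-labelled libraries and 61.2% and 47.1% in CD4/ALK4-KO-labelled ones. *Hopx* made up 9.54% and 8.95% against 13.2% and 20.0%, a larger share in both CD4/ALK4-KO-labelled libraries. *Sftpc* took 13.7% and 13.9% against 8.35% and 16.5%, below both WT-labelled libraries in replicate 1 and above both in replicate 2. Among the 4 surfactant protein genes, *Sftpc* made up 64.5% and 70.9% of their summed counts in WT-labelled libraries and 62.6% and 68.2% in CD4/ALK4-KO-labelled ones, and the groups overlapped.

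**Figure D3:**
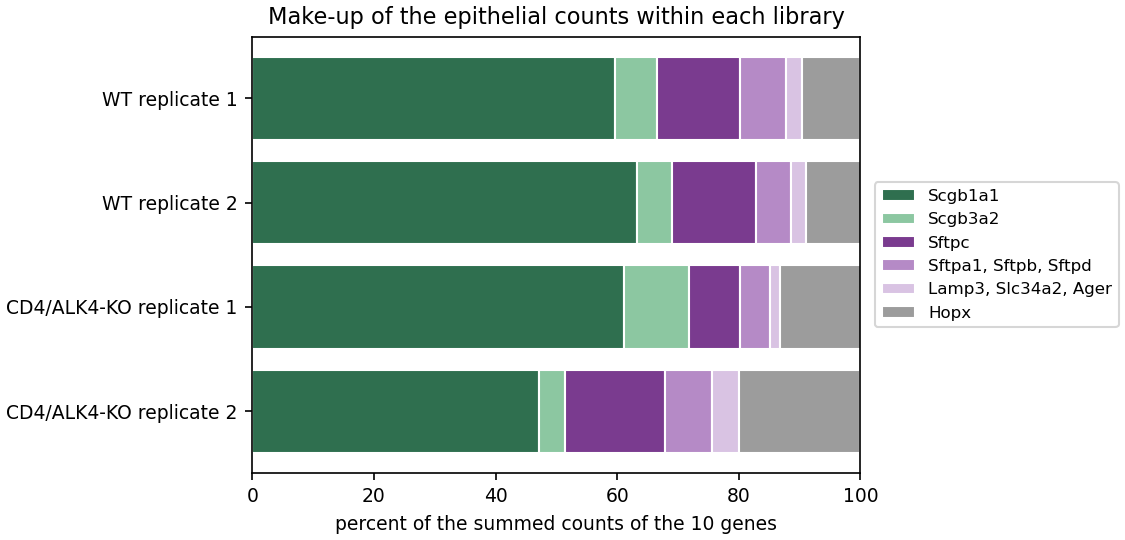
Share of each gene in the summed counts of the 10 epithelial genes (horizontal axis, percent) within each library, 1 bar per library. *Scgb1a1* fills 59.7% to 63.2% of the first 3 bars and 47.1% of CD4/ALK4-KO replicate 2, where *Hopx* takes 20.0%.

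The balance of airway to alveolar RNA differed between replicates of 1 genotype more than between the genotypes. *Scgb1a1* and *Scgb3a2* together had 6334 counts against 2023 for the 4 surfactant protein genes in WT replicate 1, a share of 75.8% of both (Wilson 95% interval 74.9% to 76.7%, counting error only). In WT replicate 2 the airway share was 77.9% (77.0% to 78.8%). CD4/ALK4-KO replicate 1 had 4684 airway and 871 surfactant counts, a share of 84.3% (83.3% to 85.3%), and CD4/ALK4-KO replicate 2 had 2407 and 1137, a share of 67.9% (66.4% to 69.4%). The WT-labelled libraries thus lay between the CD4/ALK4-KO-labelled libraries. Between the secretoglobins, *Scgb3a2* made up 10.3% and 8.35% in WT-labelled libraries and 14.7% and 8.35% in CD4/ALK4-KO-labelled ones.

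Other genes of airway secretory cells differed between the CD4/ALK4-KO replicates in the same direction. On the log2 CPM scale, replicate 1 was above replicate 2 by 0.91 in *Scgb1a1* and by 1.82 in *Scgb3a2*, and in all 13 tested genes of a further airway secretory list (median 0.54), against 6813 of the 13919 genes tested. Of these 13 genes, 5 were over 2-fold higher in replicate 1, whereas 7.28% of all genes tested differed over 2-fold between these replicates in either direction. They were *Reg3g* (3.15), an antimicrobial lectin, *Scgb3a1* (2.84), another secretoglobin, *Cckar* (2.30), the mucin gene *Muc5b* (1.97) and *Bpifb1* (1.72), which encodes a secreted airway defence protein. *Scgb3a1* had 1213 and 868 counts in WT-labelled libraries and 1018 and 146 in CD4/ALK4-KO-labelled ones, and *Reg3g* had 441 and 484 against 640 and 73. In both, CD4/ALK4-KO replicate 2 stood far below the other 3 libraries. Counts were low for *Cckar*, 10 and 12 in WT-labelled libraries against 31 and 5, and for *Muc5b*, 6 and 22 against 13 and 2. The alveolar genes lacked this direction: 1 of the 6 type 2 genes and neither type 1 gene was higher in CD4/ALK4-KO replicate 1, with medians of -0.29 and -0.36. Of the 10 genes, *Scgb3a2* and *Slc34a2* differed over 2-fold between the CD4/ALK4-KO replicates, in opposite directions, and none did so between the WT replicates, where *Bpifa1* (2.01), a secreted protein of the upper airways, and *Muc5b* (-1.59) were the airway list genes over 2-fold apart. The genes named here for their differences between replicates were chosen after their values were seen.

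**Figure D4:**
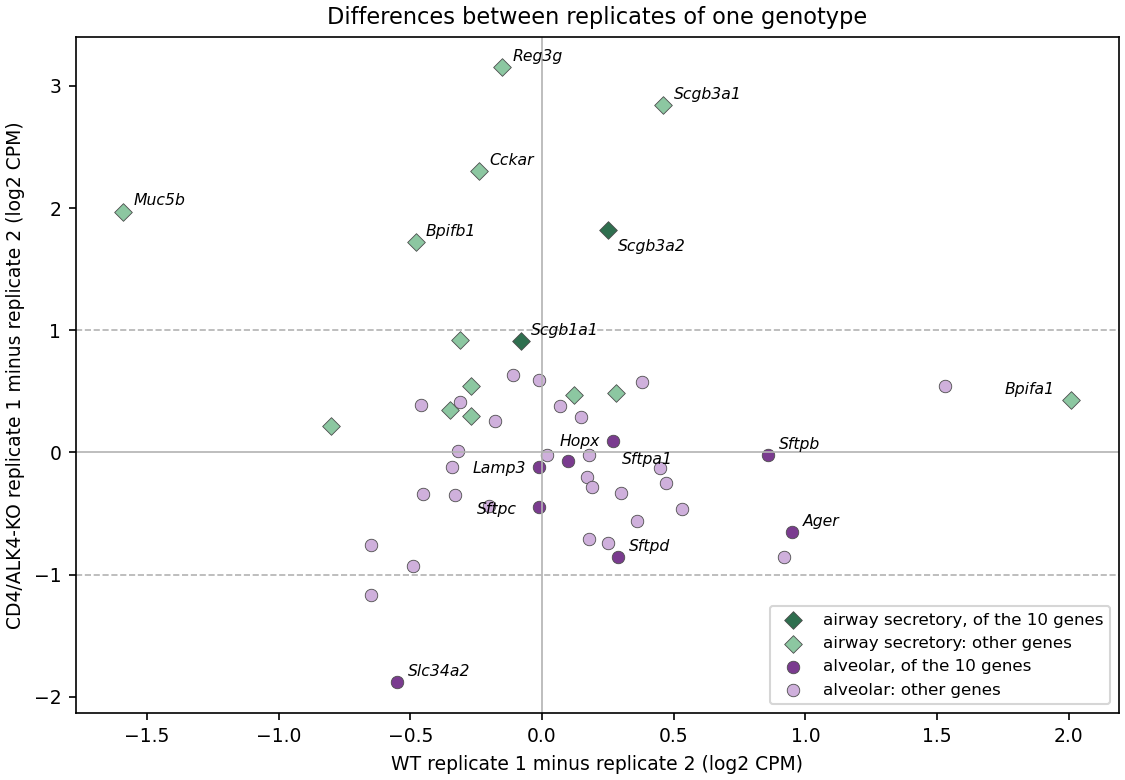
Difference between the replicates of each genotype, in log2 CPM, for airway secretory genes (diamonds) and alveolar genes (circles), with WT replicate 1 minus 2 on the horizontal and CD4/ALK4-KO replicate 1 minus 2 on the vertical axis. Dashed lines mark 2-fold differences. All airway points lie above 0 on the vertical axis, up to 3.15 for *Reg3g*, and alveolar points lie on both sides of it.

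Beyond the 10 genes, further epithelial lists showed falls and rises. Over 6 lists with 80 genes, 78 were in the table and 62 were tested, of which 13 fell, beside 15.4% of all genes tested, and 6 rose (9.68%), beside 17.4% of all genes tested, and the median log2 fold change was -0.33. List medians depended on single libraries: without WT replicate 2 they were 0.03 for surfactant and type 2, 0.04 for airway secretory, 0.21 for basal and 0.12 for pan-epithelial genes, all negative with the 4 libraries. The list of surfactant and type 2 cell genes had 3 rises and 2 falls among 16 genes tested (median -0.25), which is 18.8% and 12.5% beside 17.4% and 15.4% of all genes tested. Higher in CD4/ALK4-KO-labelled libraries were *Napsa*, the protease that processes SP-B (log2 fold change 1.13, SE 0.22, adjusted p = 0.00043), and *Abca3*, the lamellar body lipid transporter (0.82, SE 0.26, adjusted p = 0.020), along with *Dmbt1*, a mucosal scavenger receptor with at most 19 counts (3.09, SE 0.94, adjusted p = 0.014). *Foxa2*, a transcription factor of the lung epithelium with 48 and 24 counts against 5 and 11, fell (-1.99, SE 0.65, adjusted p = 0.021), as did *Il33*, an alarmin of type 2 and stromal cells (-1.29, SE 0.22, adjusted p = 0.00012). *Ctsh*, a cathepsin that also processes SP-B and SP-C, showed a log2 fold change of 0.29 (adjusted p = 0.32). The cells behind the rises of *Napsa*, *Abca3* and *Dmbt1* were not tested, and all 5 B cell genes tested rose in the same libraries. *Abca3* was not called without WT replicate 1, WT replicate 2 or CD4/ALK4-KO replicate 2 (adjusted p = 0.11, 0.19 and 0.22). *Napsa* had an adjusted p of 0.051 without WT replicate 1, and *Foxa2* of 0.48, 0.069 and 0.053 without WT replicate 1, WT replicate 2 and CD4/ALK4-KO replicate 1. *Dmbt1* was not called without WT replicate 2 (adjusted p = 0.32).

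In the type 1 cell list, 4 of 13 tested fell (30.8%, beside 15.4% of all genes tested) and none rose, beside 17.4% (median -0.50). The falls were *Cav1*, a caveolin (log2 fold change -1.49, SE 0.22, adjusted p = 1.6e-05), and *Sema3e*, a guidance factor (-1.59, SE 0.24, adjusted p = 3.1e-05). *Rtkn2* (-1.89, SE 0.40, adjusted p = 0.00094) and *Lmo7*, a protein of cell junctions (-1.01, SE 0.23, adjusted p = 0.0019), also fell. *Lmo7* had an adjusted p of 0.072 without WT replicate 1. *Pdpn*, the podoplanin of type 1 cells that fibroblasts also express, showed a log2 fold change of -0.50 (adjusted p = 0.070, and 0.041 without CD4/ALK4-KO replicate 2). The summed CPM of this list was 1523.9 and 1402.1 in WT-labelled libraries and 693.7 and 620.1 in CD4/ALK4-KO-labelled ones, most of it *Cav1*. In WT-labelled libraries, mean CPM was 1052.5 for *Cav1*, 64.1 for *Hopx* and 4.62 for *Ager*. The cells behind *Cav1* and the other falls of this list were not tested. The falls here stood beside the values of *Hopx* and *Ager*, neither of which passed the test.

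In the airway secretory list, 1 of 13 tested fell (7.69%, beside 15.4% of all genes tested) and none rose, beside 17.4% (median -0.22). The fall was *Gsta3*, a glutathione transferase (log2 fold change -1.05, SE 0.29, adjusted p = 0.0074). Without WT replicate 1 its adjusted p was 0.10. Among the genes of this list with the most counts, *Aldh1a1*, a retinal dehydrogenase of club cells, showed a log2 fold change of -0.66 (adjusted p = 0.054) and *Hp*, haptoglobin, of 0.0060 (adjusted p = 0.99). For *Aldh1a1* this depended on the library and the setting, from -1.16 (adjusted p = 1.3e-07) without CD4/ALK4-KO replicate 1 to -0.28, and it was called lower with upper quartile scaling (adjusted p = 0.028) and with no filter (adjusted p = 0.016). Ciliated cell genes had 2 falls among 8 tested (25.0%, beside 15.4% of all genes tested), both at low counts. *Foxj1*, the regulator of motile cilia, had 20 and 11 counts in WT-labelled libraries and 0 and 4 in CD4/ALK4-KO-labelled ones (adjusted p = 0.033), and *Ccdc153* had 25 and 23 against 2 and 6 (adjusted p = 0.016). Both calls were lost when WT replicate 2 or CD4/ALK4-KO replicate 1 was left out, and that of *Ccdc153* also without WT replicate 1. *Tppp3*, a tubulin-binding protein of ciliated cells, showed a log2 fold change of -0.64 (adjusted p = 0.058) and *Sec14l3* of -0.15 (adjusted p = 0.82). Without CD4/ALK4-KO replicate 2, the log2 fold change of *Tppp3* was -0.90. *Tppp3* was called lower with upper quartile scaling (-0.70, adjusted p = 0.047) and with no filter (-0.64, adjusted p = 0.048). Of the basal cell genes, *Krt14* fell (-1.06, SE 0.31, adjusted p = 0.012), not without WT replicate 1 (adjusted p = 0.31), and *Krt15* showed a log2 fold change of 0.25 (adjusted p = 0.80).

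Genes shared by most epithelia fell or rose by gene. The keratins *Krt8* (log2 fold change -1.09, SE 0.21, adjusted p = 0.00041), *Krt18* (-1.12, SE 0.21, adjusted p = 0.00031) and *Krt7* (-0.71, SE 0.26, adjusted p = 0.036) fell, the last not without WT replicate 1 (adjusted p = 0.81). The adhesion genes *Cdh1* (1.77, SE 0.30, adjusted p = 0.00011) and *Epcam* (2.31, SE 0.54, adjusted p = 0.0022) and the protease inhibitor *Spint2* (0.95, SE 0.26, adjusted p = 0.0068) rose, the last not without WT replicate 2 (adjusted p = 0.16). *Epcam* had 11 and 15 counts in WT-labelled libraries and 75 and 40 in CD4/ALK4-KO-labelled ones. This list thus had 3 rises and 3 falls among 10 genes tested (median -0.31), beside 17.4% and 15.4% of all genes tested. *Epcam* and *Cdh1* were higher, and *Krt8* and *Krt18* lower, in the libraries in which *Scgb1a1*, *Sftpc* and *Sftpa1* were lower. The cells behind each of these genes, LLC-OVA tumor cells among them, were not tested.

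**Figure D5:**
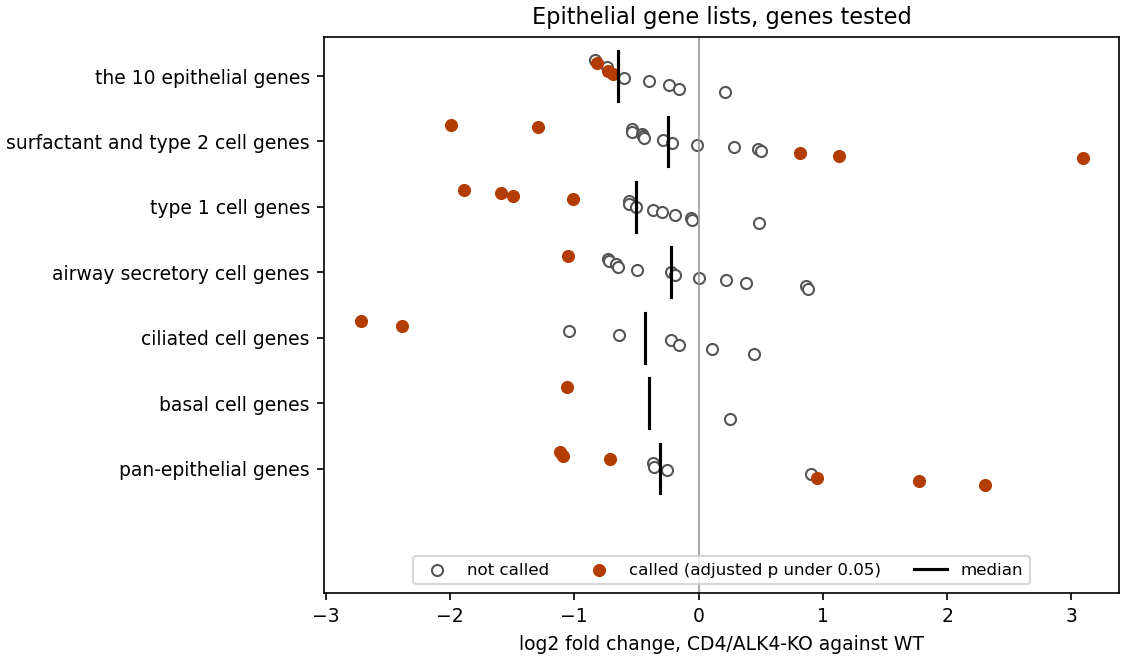
Log2 fold change of CD4/ALK4-KO against WT (horizontal axis) for each tested gene of the 10 epithelial genes and of 6 further epithelial lists, with filled points for genes at an adjusted p under 0.05 and bars for list medians. Medians with all 4 libraries ran from -0.65 for the 10 genes to -0.22 for the airway secretory list, whose own median lay between -0.95 and 0.24 over the fits with 1 library removed, and filled points lie on both sides of 0 in the type 2 and the pan-epithelial lists.

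Markers of other cells moved between the same libraries. The counts of calls below stand beside 15.4% of all genes tested called lower and 17.4% called higher. All 4 tested genes of the T cell receptor complex rose (median log2 fold change 2.26, with *Cd3d* at 1.97 and *Cd3g* at 2.16), as did 10 of 10 cytotoxic lymphocyte genes (*Gzma* 1.42, *Ccl5* 0.98, the latter with an adjusted p of 0.052 without WT replicate 2) and 5 of 5 B cell genes (*Ms4a1* 2.16, *Cd79b* 1.69). Of 9 tested fibroblast genes, 6 fell, among them the collagen gene *Col3a1* (-0.93) and the decorin gene *Dcn* (-0.69), and their summed CPM was 6744.4 and 7342.0 in WT-labelled libraries and 4785.2 and 3982.0 in CD4/ALK4-KO-labelled ones, a ratio of 0.622. The call of *Col3a1* was lost without WT replicate 1 (adjusted p = 0.052) and that of *Dcn* without WT replicate 2 (-0.45, adjusted p = 0.40). Alveolar macrophage genes had 3 falls and 1 rise among 10 (summed CPM 824.6 and 986.9 against 624.5 and 498.0), with *Chil3* at -0.83 (adjusted p = 0.0075, but 0.24 without WT replicate 2) and *Marco* at -0.37 (adjusted p = 0.22). Other macrophage genes had 1 rise among 8 (*C1qb* -0.46, adjusted p = 0.17, or 0.0033 without CD4/ALK4-KO replicate 2, and *Lyz2* -0.15, adjusted p = 0.59), and endothelial genes had 1 rise, *Pecam1* (1.72), and 2 falls among 10, with *Calcrl* at -0.08 (adjusted p = 0.82). The part of these cells, or of LLC-OVA tumor cells, in the epithelial values was not tested.

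Set against the T cell receptor complex of the same library, epithelial RNA differed far more between the labels. *Scgb1a1* had 2.14 and 2.41 counts per count of the T cell receptor complex in WT-labelled libraries and 0.371 and 0.222 in CD4/ALK4-KO-labelled ones. For *Sftpc* the values were 0.492 and 0.529 against 0.0506 and 0.078, and for the sum of the 10 genes 3.59 and 3.81 against 0.606 and 0.472. In WT-labelled libraries, counts of the 10 epithelial genes exceeded those of *Cd3d*, *Cd3e*, *Cd3g* and *Cd247* together. In CD4/ALK4-KO-labelled ones they were below them. *Trac*, *Trbc1* and *Trbc2* were not among the genes summed and counts were not scaled to gene length. Total epithelial and T cell receptor RNA are thus not compared. When all libraries were scaled to the T cell receptor complex, all 10 genes were lower, *Hopx* included (log2 fold change -1.97), as were 12803 of the 13919 genes tested, whose median moved to -2.19. On this scale the rises of *Napsa* and *Abca3* turned to -1.06 and -1.35.

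The genes whose profile over the 4 libraries was nearest to that of *Scgb1a1* were not among the airway secretory genes listed here. By Euclidean distance between centred log2 CPM values, among 11627 genes averaging 50 or more counts, the nearest were *Ncapg* (0.0959), which encodes a condensin subunit, *Ndc1* (0.0977), which encodes a nucleoporin, *Efcab11* (0.119), *Ccdc112* (0.128) and *Ntn4* (0.128), which encodes a netrin. Of the airway secretory list, *Aldh1a1* was at rank 21 (0.181), *Cbr2* at 587 (0.484), *Scgb3a1* at 8413 (1.48) and *Reg3g* at 8993 (1.59). The nearest of the other 9 epithelial genes was *Sftpa1* at rank 1486 (0.642), ahead of *Lamp3* at rank 2135 (0.730) and *Scgb3a2* at rank 2272 (0.749). With 4 libraries, such distances are a description only.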

How the data were processed

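RNA-Seq was analysed in 4 CD4+ T cell libraries, with genotype and replicate taken from the sample labels. The authors aligned single-end reads of 75 bases to mm10 with HISAT2 and counted them with htseq-count (mode intersection-nonempty). The deposited values are the authors' raw counts for each gene symbol. Per the submitters' processing notes FastQC and DESeq2 were also used. Annotation, strand option and tool versions are not given in the sources used here. *Trac*, *Trbc1*, *Trbc2*, *Sftpa2* and *Sftpb-ps*, which the lists name, were not analysed here.

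Counts were tested with edgeR 4.0.16 (R 4.3.3): filterByExpr, TMM, glmQLFit (robust, genotype alone) and glmQLFTest, and Benjamini-Hochberg adjustment over all genes tested, with 0.05 as the threshold for a call. Log2 CPM used a prior count of 2. The fit was tested on simulated data. Replicates exceeded sampling noise (chi-square per degree of freedom 16 for WT and 28.7 for CD4/ALK4-KO). The design text calls them biological replicates, but does not say how many mice each pooled. Positions and exon lengths are those of GENCODE M21 on GRCm38, promoters those of RefSeq.

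The epithelial genes and all lists were chosen with earlier results of these data known. Named genes were the 10 epithelial genes, the 2 of each list with the most counts, called genes of epithelial lists, *Acvr1b*, *Cd4* and the 5 profiles nearest to *Scgb1a1*. Alternatives were DESeq2 1.42.0 size factors and Wald test, upper quartile, total counts and T cell receptor scaling, edgeR's likelihood ratio test, no filter, a minimum of 10 counts per library, the replicate block, each library left out, and, added after seeing the data, a crossed block.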

Additional observations from a re-analysis of the deposited data

How the results depend on the processing

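Over the 10 epithelial genes, 10 alternative settings and 4 libraries left out in turn gave 140 fold changes, of which 114 had the direction and the side of the threshold first reported, 11 lost a call, 10 gained one and 5 changed sign. Scaling to the T cell receptor complex shifted the median of all genes by -2.19: 10 of the 10 epithelial genes were then called lower, with a summed ratio of 0.146, as were 55 other epithelial genes (0 higher) and 12803 genes in all (48 higher). Signs turned there for *Hopx* (-1.97), *Acvr1b* (-2.01), *Abca3* (-1.35), *Napsa* (-1.06), *Ctsh* (-1.90), *Hp* (-2.20), *Krt15* (-1.89), *Cdh1* (-0.41), *Spint2* (-1.24), *Cd3d* (-0.22), *Cd3g* (-0.04), *Gzma* (-0.77), *Ccl5* (-1.18), *Ccr7* (-0.06), *Ms4a1* (-0.00), *Cd79b* (-0.47) and *Pecam1* (-0.48). *Hp*, near 0 in the first place, was -0.06 with upper quartile scaling. *Sftpc* made up 59.6% and 64.2% (WT) and 57.5% and 60.2% (CD4/ALK4-KO) of the counts when the 6 type 2 genes alone were summed. The replicate number as a block left 1 of the 10 genes called lower, *Sftpc* (adjusted p = 0.027), with *Scgb1a1* at 0.055 and *Sftpa1* at 0.15, and moved *Abca3* to 0.074, *Krt7* to 0.11 and *Dcn* to 0.069. It left 1444 genes called lower and 1768 higher over all, with *Hp* at -0.01. Deviations of same-numbered libraries correlated at -0.214, a single value that does not decide whether replicate numbers pair the libraries. The crossed block, chosen after seeing the data, called 4 of the 10 genes and 3037 genes lower and 3118 higher, with *Hp* at -0.01. DESeq2's Wald test called 1956 genes lower and 2274 higher, did not call *Foxa2* (adjusted p = 0.052) or *Krt7* (0.060), and gave no adjusted p for *Dmbt1*, *Foxj1* and *Ccdc153*.

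With each library left out, the genes called lower ran from 0 to 4 of the 10, from 6 to 17 among the other epithelial genes and from 754 to 2618 over all, and those called higher from 3 to 10 and from 1103 to 2923. Fewer libraries enter those fits, and the lone library left in a group is assumed to vary like the other group. Fold changes that took both signs ran from -0.82 to 0.16 for *Ager*, -1.46 to 0.54 for *Slc34a2*, -1.39 to 0.40 for *Scgb3a2* and -0.06 to 0.39 for *Acvr1b*. The same held for *Hp* (-0.26 to 0.24), *Sec14l3* (-1.21 to 0.46), *Krt15* (-0.66 to 0.83), *Lyz2* (-0.35 to 0.06) and *Calcrl* (-0.18 to 0.04). List medians that did so ran from -0.19 to 0.03 (surfactant and type 2), -0.95 to 0.24 (airway secretory), -0.66 to 0.29 (basal), -0.30 to 0.21 (pan-epithelial), -0.28 to 0.04 (alveolar macrophage) and -0.28 to 0.01 (macrophage). Low counts limited *Dmbt1* and *Foxj1*, whose standard errors were 0.94 and 0.96 on the log2 scale.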
